A study of Mus musculus with 2 samples.

Results

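Long noncoding RNAs and host genes of small nucleolar RNAs (snoRNAs) were examined in progestin/DMBA-induced mammary tumors through 5 genes, Neat1, Malat1, Meg3, Snhg1 and Gas5, out of 12393 genes named on the array. Every probe set annotated to 1 of these genes alone was read, 20 of 20380 named probe sets, where a probe set is a group of short oligonucleotides that reads part of a transcript. The genes were chosen by their ratios on these same arrays, so their values are given as a description and support no test. Tumors came from female wild-type FVB mice that were treated from 5 weeks of age with 15 mg medroxyprogesterone acetate, a progestin, and after 7 days with 4 weekly doses of 1 mg DMBA, a carcinogen given by gavage in cottonseed oil. From 1 day after the last dose, the control group stayed on standard chow and the other group received chow with 0.1% GW9662, an irreversible antagonist of PPARγ. RNA from the tumors of 5 mice was pooled for each diet and hybridized to 1 Affymetrix GeneChip mouse array. With 1 pooled array per diet there was no replicate, no error between mice could be estimated, and diet, mice and array cannot be told apart as sources of a difference.

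Long noncoding RNAs are transcribed and processed much like messenger RNA but encode no protein. Neat1 is the scaffold of paraspeckles, nuclear bodies that hold RNA and RNA-binding proteins, and Malat1 is retained in nuclear speckles, where splicing factors are stored. Meg3 is expressed from the maternal chromosome of the imprinted Dlk1-Dio3 domain. Snhg1 and Gas5 carry box C/D snoRNAs, guides for methylation of ribosomal RNA, in their introns. Their spliced transcripts begin with the pyrimidine-rich start typical of ribosomal protein genes and are degraded by nonsense-mediated decay during translation. Gas5 is named for its accumulation in growth-arrested cells. Within the spans of Snhg1 and Gas5 the RefSeq annotation of GRCm38.p6 places 8 snoRNA genes each, Snord22 among those of Snhg1 and Snord47 among those of Gas5, and it places Mir770 within Meg3.

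Both arrays had the same 2% trimmed mean, 500.2, and signals reached 14841.4. The 33 probe sets of olfactory receptors, which mammary tumors should not light up, reached at most 25.8 on either array. Signals below 100 were treated as too low for a ratio, and a fold with 1 signal below 100 was given as at least the other signal over 100. Probe sets of the same gene differed in log2 ratio of GW9662 over control with an SD of 0.36, over 2639 genes, and this spread holds no variation between mice. The luminal keratin Krt8 (signals of 9496.4 and 9664.7 in control and GW9662 tumors) and the epithelial adhesion molecule Epcam (6756.6 and 7580.4) were bright in both pools. The pools were mixtures, however, and the adipocyte marker Adipoq had 9668.2 in control and 417.5 in GW9662 tumors.

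Promoter windows of 300 bases, 250 before and 50 after a RefSeq transcription start, were found for 4 of the 5 genes, and Neat1 had none. These windows are shown as a description of genes that were chosen by their ratios, and shared control of the genes was not tested. Each is given 5′ to 3′ on the gene's strand in GRCm38.p6 coordinates, with matches to 2 motifs in capitals. These are TGACGTCA, the cyclic AMP response element, which reads the same on both strands, and TATAAA, read as TTTATA on the other strand. Meg3, chr12:109540746-109541045, plus strand, had TGACGTCA starting 57 bases before the start, and TTTATA and TATAAA, which overlap, from 29 and 25 bases before it.
Meg3: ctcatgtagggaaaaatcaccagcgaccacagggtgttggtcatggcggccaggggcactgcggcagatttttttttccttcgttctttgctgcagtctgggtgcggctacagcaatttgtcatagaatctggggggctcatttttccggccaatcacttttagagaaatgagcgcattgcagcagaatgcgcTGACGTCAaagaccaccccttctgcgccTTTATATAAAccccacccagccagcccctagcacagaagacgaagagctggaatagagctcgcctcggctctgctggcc
Gas5, the second of its 2 windows, chr1:161034916-161035215, plus strand, had TGACGTCA starting 46 bases before the start.
Gas5: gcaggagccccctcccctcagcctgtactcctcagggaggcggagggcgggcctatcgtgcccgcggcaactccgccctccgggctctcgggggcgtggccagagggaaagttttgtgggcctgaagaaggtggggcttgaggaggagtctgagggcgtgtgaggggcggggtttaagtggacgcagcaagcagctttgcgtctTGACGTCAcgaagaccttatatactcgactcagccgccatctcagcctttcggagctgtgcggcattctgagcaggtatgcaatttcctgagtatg
Snhg1, chr19:8723237-8723536, plus strand, had TTTATA starting 29 bases before the start.
Snhg1: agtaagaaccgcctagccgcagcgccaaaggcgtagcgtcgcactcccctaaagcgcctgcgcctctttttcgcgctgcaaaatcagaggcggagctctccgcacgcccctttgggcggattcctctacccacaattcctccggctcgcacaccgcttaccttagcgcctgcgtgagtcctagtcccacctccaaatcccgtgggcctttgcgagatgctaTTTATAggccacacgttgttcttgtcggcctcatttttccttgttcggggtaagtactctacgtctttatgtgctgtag
Malat1, chr19:5802623-5802922, minus strand, held neither motif.
Malat1: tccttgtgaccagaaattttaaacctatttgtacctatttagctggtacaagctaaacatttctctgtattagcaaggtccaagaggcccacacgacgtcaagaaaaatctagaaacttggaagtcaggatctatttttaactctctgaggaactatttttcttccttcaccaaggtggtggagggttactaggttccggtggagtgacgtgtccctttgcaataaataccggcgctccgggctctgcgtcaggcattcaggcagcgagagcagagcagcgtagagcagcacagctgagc
Over all 32851 promoter windows, 1.79% held TGACGTCA and 13.6% held TATAAA on either strand. The PPAR element in its simplest form, AGGTCA repeated after 1 base, was in 0.0396% of windows and in none of those found for 4 of the 5 genes. With so rare a match, its absence from a few windows does not bear on PPARγ binding. The other windows of Meg3 and Gas5 held none of the 3 motifs. GC content was 53.7% in the Meg3 window, 62% in that of Gas5, 56.7% in that of Snhg1 and 47% in that of Malat1, against a median of 52.7% over all windows. A match is a description of the letters and not a bound site.

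All 20 probe sets of the 5 genes gave a higher signal with GW9662, whereas 48.3% of all named probe sets did. Of the 14 probe sets that reached a signal of 300 in either pool, 6, or 42.9%, were at least 2-fold higher, compared with 1.29% of all named probe sets that reached it. At least 3-fold higher, the size used in the study's methods, were 3 of the 14, all of them probe sets of Gas5 or Snhg1, compared with 0.378% of all named probe sets. Because the genes were chosen on this contrast, nothing is read from these shares. When each gene was read at its brightest probe set, by mean signal, 2 of 5 genes, Neat1 and Meg3, were at least 2-fold higher, against 1.02% of 6053 genes that reached 300. The 5 genes had a median log2 ratio of 0.90, or 1.86-fold, and the 8009 genes with a mean signal of at least 100 had one of 0.03. Just inside the 2-fold line lay Neat1 at 2.05-fold and just outside it lay Snhg1 at 1.86-fold.

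**Figure D1:**
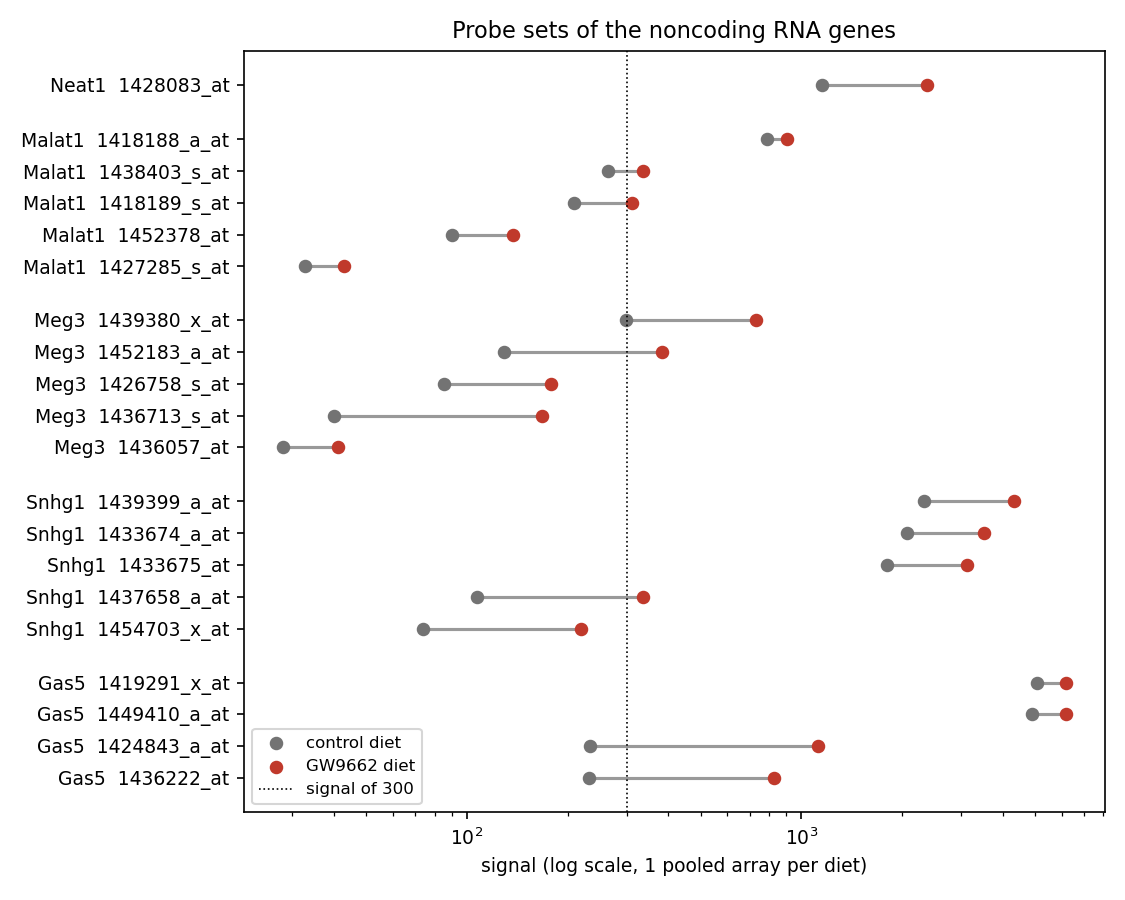
Signal of each of the 20 probe sets on a log x axis, 1 row per probe set grouped by gene, with the control diet array in gray, the GW9662 diet array in red and a dotted line at a signal of 300. The red point lies to the right of the gray point in every row, and the longest lines belong to dimmer probe sets of Gas5, Meg3 and Snhg1.

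Of the nuclear-retained RNAs, Neat1 had a larger ratio than any probe set of Malat1. Neat1, the architectural RNA of paraspeckles, was read by 1 probe set with a signal of 1154.7 in control tumors and 2369.3 in GW9662 tumors, 2.05-fold higher. Its log2 ratio of 1.04 lay above that of 98.7% of the 11827 named probe sets with a mean signal of at least 100. With a single probe set, no second reading of Neat1 was available on this array.

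Malat1, whose mature end is cut by RNase P rather than polyadenylated, was read by 5 probe sets. Its brightest probe set had signals of 789.7 and 908.1, 1.15-fold higher, a log2 difference of 0.20 that is smaller than the spread of 0.36 between probe sets of a gene. The next had 263.6 and 335.5, 1.27-fold higher, and another had 209.0 and 311.3, 1.49-fold higher. All 3 of these had the same direction, with the larger ratio at the lower signal. A dimmer probe set had 90.0 and 137.7, at least 1.38-fold higher, and the dimmest had 32.7 and 42.9, below 100 on both arrays. No Malat1 probe set reached 2-fold. At the 3 probe sets with both signals above 100, log2 ratios ran from 0.20 to 0.57.

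Meg3, the maternally expressed RNA of the Dlk1-Dio3 domain, had the highest ratio of the 5 genes at its brightest probe set. This probe set had a signal of 299.8 in control tumors and 730.8 in GW9662 tumors, 2.44-fold higher. The second had 129.4 and 382.6, 2.96-fold higher, and it was designed from the same sequence as a dimmer one, with 85.1 and 178.9, at least 1.79-fold higher. Both readings of that sequence pointed the same way. Another had 40.0 and 167.1, at least 1.67-fold higher, and the dimmest had 28.2 and 41.0, below 100 on both arrays. Meg3 was thus near or below the study's signal minimum of 300 in control tumors at every probe set, and above it at 2 probe sets in GW9662 tumors. Rian, the noncoding snoRNA host that follows Meg3 in the same domain, had 180.9 and 315.3 at its brightest probe set, 1.74-fold higher. Its second probe set had 56.5 and 97.4, below 100 on both arrays, and its dimmest was near 0 on both. Dlk1, the paternally expressed growth regulator of the domain, had 47.5 and 55.1, below 100 on both arrays, so that no fold was given for it.

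Snhg1, which hosts box C/D snoRNAs, was higher at 3 bright probe sets by nearly the same ratio. The brightest had a signal of 2325.3 in control tumors and 4329.4 in GW9662 tumors, 1.86-fold higher. The next had 2076.8 and 3529.1, 1.70-fold higher, and the other, designed from the same sequence, had 1806.3 and 3138.3, 1.74-fold higher. The latter 2 differed by 0.03 in log2 ratio, the closest agreement between probe sets of the 5 genes that share a design sequence. At the dimmer probe sets the ratios were larger, with 107.4 and 336.6, 3.13-fold higher, and 74.1 and 220.0, at least 2.20-fold higher.

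Gas5, the growth arrest-specific snoRNA host, was read at 2 levels that differed in ratio. At its 2 bright probe sets it had signals of 5058.5 and 6172.1 (1.22-fold higher) and of 4900.4 and 6169.9 (1.26-fold higher) in control and GW9662 tumors. Both differences were smaller than the spread between probe sets of a gene. At its 2 dimmer probe sets it had 233.4 and 1123.9, 4.82-fold higher, and 231.5 and 827.4, 3.57-fold higher. The ratio of 4.82 was the highest of the 20 probe sets, and its log2 value of 2.27 lay above that of 99.9% of named probe sets with a mean signal of at least 100. A further probe set, named for both Snord47 and Gas5 and left out of the 20, had 287.6 and 627.6, 2.18-fold higher. It was the 1 probe set of the array whose annotation names a snoRNA. Which exon or intron each Gas5 probe set reads was not analysed here.

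**Figure D2:**
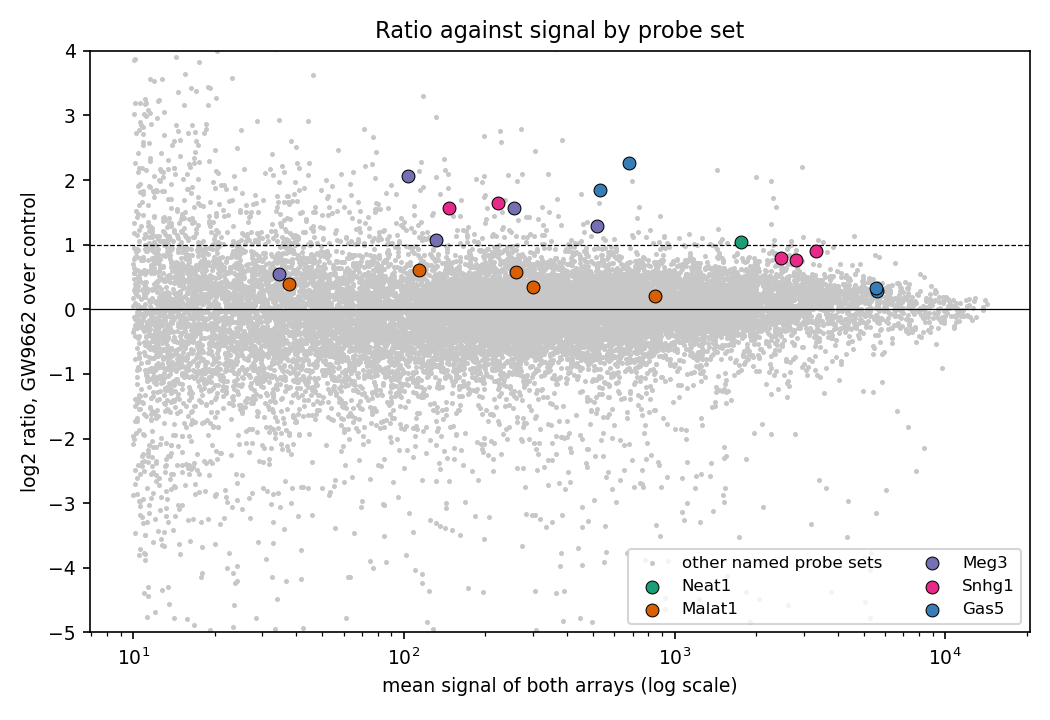
Log2 ratio of GW9662 over control on the y axis against the mean signal of both arrays on a log x axis, for named probe sets with a mean signal of at least 10, with the 5 genes in color and the dashed line at 2-fold higher; ratios beyond the y axis are not drawn. The 2 bright Gas5 points lie near the line of equal signal, and the 2 dimmer Gas5 points lie above all other points of the 5 genes except 1 of Meg3, whose control signal was 40.0.

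Probe sets of the same noncoding gene differed in ratio, most of all in Gas5, and for Meg3 the order depended on how low signals were read. Between the dimmest and the brightest probe set with a mean signal of at least 100, the log2 ratio differed by 1.55 in Gas5, where all signals were above 100. With signals as deposited the difference was 0.41 for Malat1, 0.67 for Snhg1 and 0.78 for Meg3, but the control signals of these dimmest probe sets were 90.0, 74.1 and 40.0, too low for a ratio. With signals below 100 set to 100 it was 0.26 for Malat1, 0.24 for Snhg1 and -0.54 for Meg3, so that the sign turned for Meg3. Over probe sets with both signals at 100 or more it was 0.37 for Malat1, 0.75 for Snhg1 and 0.28 for Meg3. Across all 2639 genes read by 2 or more probe sets with a mean signal of at least 100, the dimmest had the higher ratio in 37.9%. With low signals set to 100 this was 38.6%. The median difference with signals as deposited was -0.14. The quartiles were -0.42 and 0.14, and 1.74% of genes exceeded 1. Gas5 was exceeded by 20 genes. By class, the 7 probe sets whose identifier ends in _a_at, for transcripts of 1 gene, had a median log2 ratio of 0.90, and the 5 ending in _at had 0.80. The 5 ending in _s_at, whose oligonucleotides match several transcripts, had 0.57, and the 3 ending in _x_at, which may cross-hybridize, had 1.28. These medians used signals as deposited, also those below 100. The classes held different sets of genes, so the medians do not compare the classes alone. Both groups of Gas5 readings held 1 probe set of the class _a_at, so the split within Gas5 did not follow this class.

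**Figure D3:**
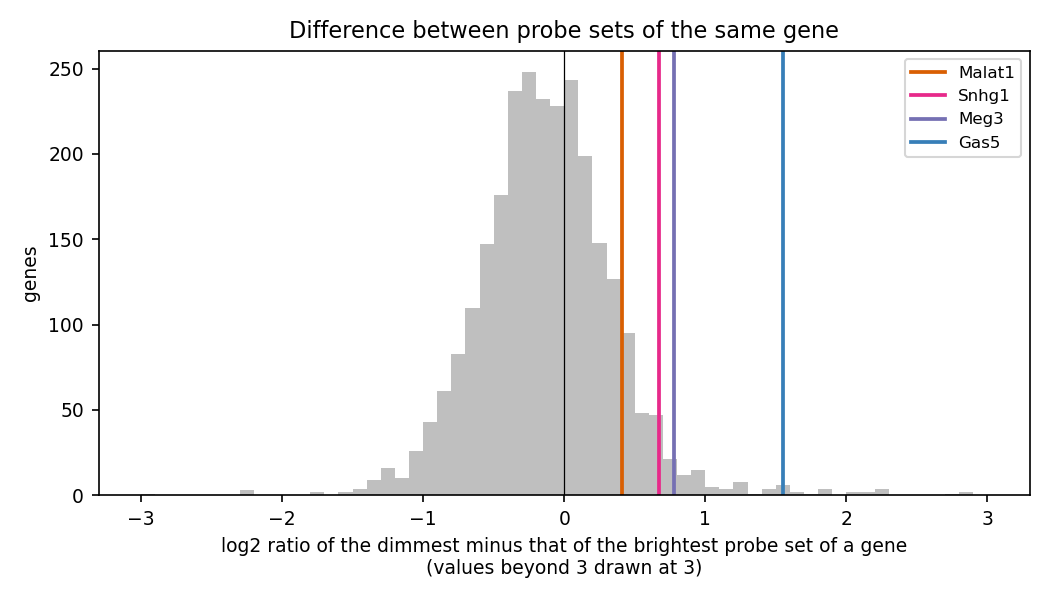
Histogram over 2639 genes of the log2 ratio at the dimmest minus that at the brightest probe set of mean signal 100 or more, with colored lines for the 4 noncoding RNA genes read more than once. With signals as deposited the lines lie from 0.41 for Malat1 to 1.55 for Gas5; with signals below 100 set to 100 the Meg3 line would lie left of 0, at -0.54.

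Other noncoding snoRNA hosts had ratios close to that of Snhg1. Snhg5, host of the U50 snoRNA, had signals of 737.3 and 1447.8 in control and GW9662 tumors, 1.96-fold higher. Snhg8 had 1622.4 and 2763.3, 1.70-fold higher, and Snhg6 had 1508.0 and 2537.0, 1.68-fold higher. With Rian, described above with Meg3, these were the 4 hosts outside Snhg1 and Gas5 with a mean signal of at least 100. All 4 gave a higher signal with GW9662, compared with 52.9% of genes, and none reached 2-fold. Their median log2 ratio was 0.78. Snhg16 had 37.4 and 141.9, at least 1.42-fold higher, and Snhg11 had 43.1 and 11.9, below 100 on both arrays. Of the 23 noncoding hosts listed, Snhg1 and Gas5 among them, only 8 had a probe set annotated to that gene alone. The RefSeq annotation places at least 1 snoRNA gene within the span of 20 of the 22 listed noncoding hosts that it names.

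Protein-coding hosts had ratios on both sides of equal signal. These genes, mostly for ribosomal proteins and translation factors, carry snoRNAs in their introns as Snhg1 and Gas5 do, and RefSeq places a snoRNA gene within all 40 listed. Only 25 of the 40 had a probe set annotated to that gene alone, and 24 of these were measured. Of the 24, 13 had a higher and 11 a lower signal on the GW9662 array, with a median log2 ratio of 0.06. The higher share, 54.2%, was near the 52.9% of all genes. At the brightest, Rpl13a (13882.7 and 14662.8), Rps20 (12085.6 and 13622.3), Rpsa (12613.9 and 11717.2) and the chaperone gene Hspa8 (12422.2 and 11736.3), the signals were nearly level and close to the top of the range. Their other probe sets did not all agree. The dimmest of Hspa8 had 179.8 and 391.7, 2.18-fold higher, and the dimmest of Rpl13a had 3476.3 and 5560.8, 1.60-fold higher. Another of Rpl13a was lower (7894.8 and 6792.6). By the brightest probe set, both genes at least 2-fold higher, Rpl12 (267.1 and 560.0) and Rpl37 (1502.5 and 3148.7), were read by 1 probe set each, and over all genes that reached 300 the share was 1.02%. None was at least 2-fold lower, compared with 4.68% of genes that reached 300. The next ratios were those of Ppan, a factor of ribosome assembly (316.4 and 427.5, 1.35-fold higher), and Nop56 (1220.3 and 1538.8, 1.26-fold higher). The difference between the noncoding and the protein-coding hosts was not tested, since the arrays have no replicates.

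Proteins that bind snoRNAs had small ratios. Of 12 measured proteins of the box C/D and H/ACA particles and their assembly factors, 8, or 66.7%, had a higher and 4 a lower signal on the GW9662 array. Among all genes 52.9% were higher. None of the 12 was at 2-fold, against 1.02% of all genes that reached 300, and their median log2 ratio was 0.20. The methyltransferase fibrillarin (Fbl) had signals of 3036.0 and 3600.7, 1.19-fold higher, and 1923.2 and 2808.5, 1.46-fold higher, at its 2 probe sets. Its box C/D partner Nop58 had 1115.9 and 972.2, 1.15-fold lower, while Nop56, 1.26-fold higher at the probe set given above, was lower at the other (717.6 and 612.8). Of the H/ACA proteins, Gar1 had 1264.7 and 1681.6, 1.33-fold higher, Nhp2 had 3028.2 and 3934.1, 1.30-fold higher, and Nop10 had 3853.3 and 4569.9, 1.19-fold higher. Second probe sets of Nhp2 (1699.2 and 2883.8, 1.70-fold higher) and Nop10 (2438.5 and 3397.5, 1.39-fold higher) had larger ratios than these.

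Proteins of the nuclear bodies that hold Neat1 and Malat1 were mostly higher by small ratios. Of 23 measured paraspeckle proteins, 22 gave a higher signal with GW9662, with a median log2 ratio of 0.32, whereas 52.9% of all genes were higher. Counted as at least 2-fold higher was 1 of them, against 1.02% of all genes that reached 300. The core proteins that bind Neat1 differed by small ratios at the probe sets of highest signal. Nono had signals of 4121.7 and 4409.3, Sfpq had 2025.9 and 2388.1, and Pspc1 had 570.1 and 662.1. Sfpq was read by 5 probe sets that did not agree. Its dimmest had 145.6 and 342.0, 2.35-fold higher, and another had 857.2 and 760.4, which was lower. The protein at least 2-fold higher was Rbmx, an RNA-binding protein of the X chromosome (172.4 and 452.4, 2.62-fold). A second Rbmx probe set was level (264.4 and 270.0). Hnrnpa1, a splicing regulator, lay on the line at its probe set of highest mean signal (1540.6 and 3076.7, log2 ratio 1.00). Its other probe sets had 1903.3 and 2609.6, 1.37-fold higher, and 94.6 and 514.7, at least 5.15-fold higher. Of 25 measured nuclear speckle proteins, 23 had a higher signal, beside 52.9% of all genes, with a median of 0.31 and none at 2-fold. Srrm2, a scaffold of speckles, had 980.8 and 1482.1, 1.51-fold higher. Srsf1 had 4458.6 and 6149.7, 1.38-fold higher, and Pnn had 554.5 and 927.7, 1.67-fold higher. Srsf2, a classic marker of speckles, had 3472.8 and 3074.0, 1.13-fold lower. Srsf1 was read by 6 probe sets, Srsf2 by 4 and Pnn by 3, and only that of highest mean signal is given for each.

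Of 8 measured factors of nonsense-mediated decay, the pathway that degrades spliced Snhg1 and Gas5, 6 gave a higher and 2 a lower signal with GW9662, beside 52.9% of all genes higher. Their median log2 ratio was 0.33, and none was at 2-fold. The helicase Upf1, the central factor, had signals of 164.1 and 230.4, 1.40-fold higher, and its partner Upf2 had 588.2 and 832.7, 1.42-fold higher. Rbm8a, of the exon junction complex, had 2465.2 and 3529.2, 1.43-fold higher, but was level at its other probe set (282.0 and 288.9). The release factor Etf1 had 1268.4 and 1675.1, 1.32-fold higher, at its brightest probe set, but its next was lower (772.4 and 545.2). Gspt1, the partner of Etf1, had 1931.8 and 1489.2, 1.30-fold lower.

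**Figure D4:**
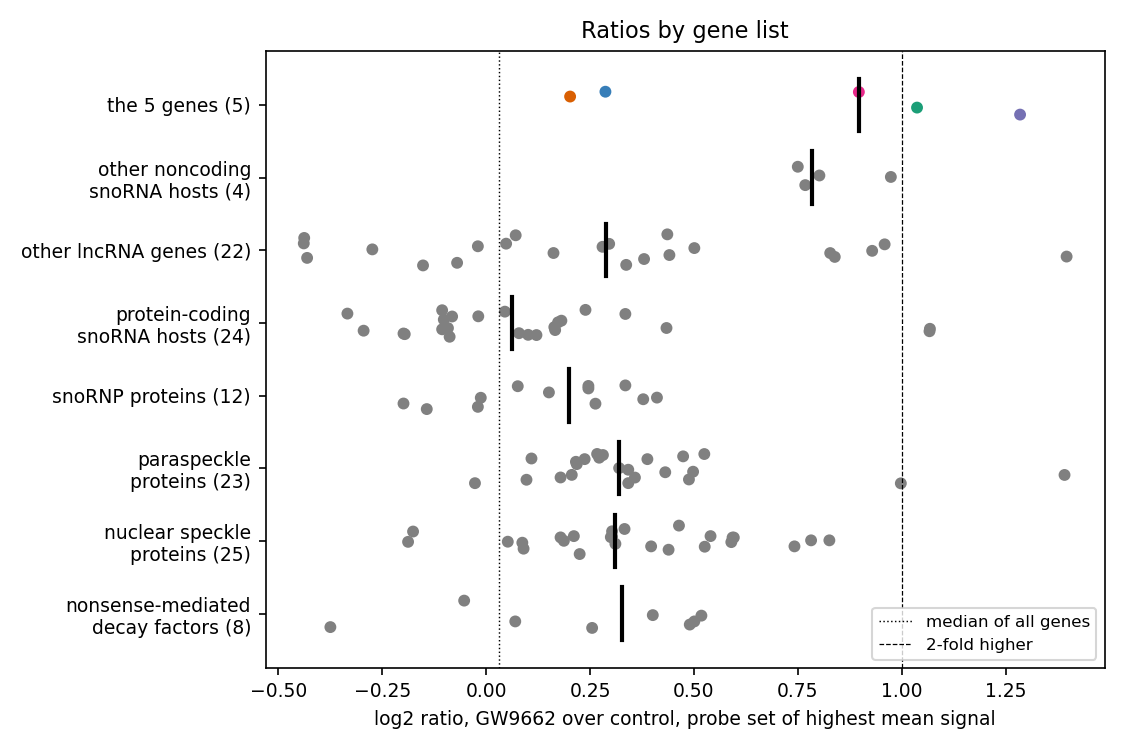
Log2 ratio of GW9662 over control on the x axis for each gene of a list with a mean signal of at least 100, read at its probe set of highest mean signal, with the number of genes in parentheses, black bars at list medians, a dotted line at the median of all genes (0.03) and a dashed line at 2-fold higher. The medians are 0.90 for the 5 genes, 0.78 for the other noncoding snoRNA hosts and 0.06 for the protein-coding hosts.

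Among other long noncoding RNAs both directions were seen. Apart from the 5 genes and the hosts, 22 genes of the RefSeq type lncRNA had a mean signal of at least 100. Of these, 15 had a higher and 7 a lower signal on the GW9662 array, beside 52.9% of all genes higher, with a median log2 ratio of 0.29. This list was drawn from the annotation after the data had been seen. A list of known long noncoding RNAs had 8 measured genes, which were Rian and genes already among the 22. In that list 6 were higher and 2 lower, with a median of 0.27. The largest ratio was that of Airn, the noncoding RNA of the imprinted Igf2r domain, with signals of 110.4 and 290.8, 2.63-fold higher. Xist, the RNA that coats the inactive X chromosome, had 3933.0 and 7036.0, 1.79-fold higher, and 2194.3 and 4593.1, 2.09-fold higher, at 2 probe sets. At another it was level (525.6 and 492.9). Norad, a cytoplasmic RNA that binds Pumilio proteins, had 3520.5 and 3937.8, 1.12-fold higher. Tug1 was level at its brightest probe set (1143.9 and 1201.4) and 1.34-fold higher at another (148.4 and 199.1). At its dimmest (39.6 and 191.3) it was at least 1.91-fold higher, with a control signal too low for a ratio. Gt(ROSA)26Sor (280.4 and 544.9, 1.94-fold) and 2010204K13Rik (141.2 and 268.9, 1.90-fold) were higher by ratios near that of Snhg1. AW112010, the brightest of the 22 genes, had the lowest ratio (5539.7 and 4085.8, 1.36-fold lower). Oip5os1 (152.8 and 126.4) and Dleu2 (181.5 and 163.4) were slightly lower.

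Protein-coding genes beside the noncoding genes on the chromosome had small ratios. Neat1 and Malat1 lie side by side on chromosome 19. Of 8 measured genes around them 4 had a higher and 4 a lower signal on the GW9662 array, beside 52.9% of all genes higher. Their median log2 ratio was 0.06. Frmd8, beside Neat1, had signals of 386.5 and 366.7, and Ltbp3, which binds latent TGF-beta, had 2649.0 and 3360.4. Around Snhg1, 6 of 8 measured genes had a higher signal, beside the same 52.9% of all genes, with a median of 0.35. Its neighbours on either side were Slc3a2, an amino acid transporter subunit (1968.9 and 1847.9, 1.07-fold lower), and Wdr74, a ribosome assembly factor (609.5 and 726.3, 1.19-fold higher). The largest ratio among these genes was that of Polr2g, a subunit of RNA polymerase II (2327.7 and 3405.6, 1.46-fold higher). No listed neighbour of Gas5 reached a mean signal of 100.

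Markers of other cell types also differed between the pools. All 13 measured adipocyte markers had lower signals with GW9662, each by at least 2-fold, and their summed signal was 70085 in control tumors and 7900 in GW9662 tumors. All 13 measured skeletal muscle markers were lower (summed signals of 13109 and 1516), as were all 9 endothelial markers (5706 and 3194). Of 12 fibroblast markers 11 were lower (42071 and 29867), the exception being Col1a1 (677.6 and 1120.0). Luminal epithelial markers were nearly level in sum (50702 and 51131), with 7 of 11, or 63.6%, higher and a median log2 ratio of 0.15. Elf5, a transcription factor of alveolar cells, was 2.03-fold lower (4138.4 and 2040.0), and Esr1, the estrogen receptor, was within the range of the olfactory receptors (13.3 and 13.2). The 7 measured leukocyte markers were nearly level in sum as well (12222 and 10912). The part of these differences in the higher signals of the noncoding RNAs was not tested. In pooled tumor RNA, fewer cells of a type and less RNA per cell cannot be told apart.

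With 2 arrays, likeness between genes can be described by level alone. By distance between log2 signals on both arrays, the genes nearest to Neat1 were Tfap2c (1204.7 and 2197.6), a luminal transcription factor, and Skil (1213.6 and 2184.3), a repressor of SMAD signaling. Nearest to Meg3 were Glipr1 (311.1 and 751.2) and Lsm7 (268.1 and 684.9), and nearest to Snhg1 were Tagln2 (2303.2 and 4738.6) and Cks2 (2605.6 and 4210.6). Malat1 lay nearest to Peli1 (785.8 and 903.6) and Ikbkb (794.0 and 902.6), and Gas5 to Ndufa7 (5025.8 and 6048.2) and Rbbp7 (5194.9 and 6164.0). With 2 values per gene, such neighbours share signals on this pair of arrays and nothing further.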

How the data were processed

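Tumor RNA pooled from 5 mice per diet was labelled with biotin by the authors and hybridized to 1 array per diet, and the raw data came from GeneChip Operating Software, version 1.1. The deposited values are a linear signal intensity for every probe set. The way the probe pairs were combined and scaled is not given in the sources used here. Signals entered without further normalization, and a signal of 0 was read as 0.1 on the log2 scale. Of 22690 probe sets, 20380 had 1 gene in the dated platform annotation, whose symbols were replaced by RefSeq names of GRCm38.p6 through gene identifiers. The 691 probe sets with several genes were not named. A gene was read at its brightest probe set, by the mean of both arrays, and genes with a mean signal of at least 100 counted as measured.

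No test was made, since each diet had 1 array, whose number limits the precision. Members and gene lists were chosen with earlier results of these data known. Named are all probe sets of the 5 genes, from each list up to 4 genes by brightness and up to 4 by size of log2 ratio, and the 2 nearest genes. Genes outside that rule (Sfpq, Pspc1, Nop58, Wdr74, Snhg11, Snhg16, Oip5os1, Dleu2, Col1a1, Esr1) were named after their values were seen. Neighbours were listed genes within 10 protein-coding genes. Alternatives covered scaling, low signals, thresholds and the choice of probe set. Calculations used pandas 2.3.3 and numpy 2.4.6 under Python 3.11.15, and figures matplotlib 3.10.9.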

Additional observations from a re-analysis of the deposited data

How the results depend on the processing

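Centring the log2 ratios on their median, quantile normalization, setting signals below 100 to 100 or adding 50 to every signal left the log2 ratio of each of the 5 genes, and the medians of the lists of snoRNA hosts, noncoding RNAs, partner proteins, decay factors, Dlk1-Dio3 genes and neighbours, within the spread of 0.36 between probe sets of a gene and in the same direction. Among cell type markers, run in the same way after seeing the data, the adipocyte median moved from -4.48 to -3.95 with 50 added, and the muscle median from -3.17 to -2.44, or to -2.59 with low signals set to 100. Gas5 depended on the probe set that reads it. Its log2 ratio was 0.29 at the brightest probe set and 1.08 as the median over all its probe sets, all of which have a mean signal of at least 100, so both medians gave 1.08. At 3-fold in place of 2-fold, 3 probe sets of the 5 genes were counted in place of 6. With signals below 100 set to 100 the dimmest probe sets of Malat1 and Meg3 had a ratio of 0, and the other 78 of 80 probe set values under 4 treatments of the signals stayed above 0. This count is weak, because setting low signals to 100 or adding 50 cannot reverse a direction. Centring raised every log2 ratio slightly, so only quantile normalization could have turned a ratio below 0. Also chosen after seeing the data, setting signals below 100 to 100 turned the difference between the dimmest and the brightest probe set of Meg3 from 0.78 to -0.54, and leaving out probe sets ending in _s_at and _x_at gave a median of 0.90 for the 5 genes. No paired analysis was possible because each diet had 1 array. Without replicate arrays, no value here can be set against the variation between tumors.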
